A study of Mus musculus with 2 samples.

Results

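The histone cluster genes are the 67 genes of the deposited count tables whose symbols begin with Hist1h, Hist2h, Hist3h or Hist4h, out of 32285 genes in all. By family they were 6 linker histone H1 genes, 18 H2A, 18 H2B, 12 H3 and 13 H4 genes. Their UMIs (unique molecular identifiers, each standing for 1 captured RNA molecule) were counted in nuclei of the mouse subventricular zone, a germinal layer beside the lateral ventricle. The MIP library came from mice given modeled intestinal perforation on postnatal day 5, with tissue taken after 48 hours, on postnatal day 7. The control library came from healthy control mice, with tissue taken at the same age. Both were made from nuclei of snap-frozen tissue, with 1 library per group. The sources used here do not give the strain, the sex, the number of mice behind a library or any pooling. The MIP library held 117 Xist UMIs and 39144 UMIs of Y-linked genes, and the control library 200105 Xist and 36 Y-linked UMIs, so the ratio of MIP to control is also a ratio of a mostly male to a mostly female library, and the 2 cannot be told apart.

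Core histones H2A, H2B, H3 and H4 form the spool that DNA is wound around, and H1 binds the linker DNA between spools. Most genes of the clusters are replication-dependent: they are transcribed strongly in S phase, when new DNA has to be packaged, and their mRNA ends in a conserved stem-loop and not in a poly(A) tail. The stem-loop binding protein SLBP and U7 small nuclear RNA direct the cut behind the stem-loop, and the mRNA is degraded when replication stops. Some cluster genes are also known to give polyadenylated transcripts in cells that no longer divide. Poly(A)-primed libraries, where they are used, would favour such transcripts; the capture chemistry is not given in the sources used here.

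The stem-loop is the feature the transcripts of these genes share, so some of its forms are shown first. The pattern searched was GG, any 2 bases, CTTTT, any base, AG, any 2 bases and CC. It occurred in a transcript model of 43 of the 67 genes (64.2%), against 72 of 21901 genes with a protein-coding transcript (0.329%). Models were those of GENCODE release M21 on the GRCm38 build, read on the sense strand, and capitals mark the letters fixed in the pattern. The first form occurred in 25 members of the H1, H2A, H2B and H3 families, among them Hist1h1e, Hist1h1c, Hist1h2ap and Hist3h2ba. The second, labelled H4 stem-loop, occurred in 7 H4 genes, among them Hist1h4d. The form after it occurred in 6 genes including Hist1h3c and Hist1h3e, and the last shown in Hist2h2ac alone. The H4 genes Hist2h4 and Hist1h4i carry a further form, and the H4 genes Hist1h4j and Hist1h4b yet another, which are not shown.
First stem-loop: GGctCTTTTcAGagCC
H4 stem-loop: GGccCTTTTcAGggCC
Stem-loop of Hist1h3c and Hist1h3e: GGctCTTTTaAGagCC
Hist2h2ac stem-loop: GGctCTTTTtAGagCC
In 22 members the transcript model ran 100 or more bases past the stem-loop, and these held 68.9% of all histone cluster UMIs. In 21 members it ended within 100 bases (16.0% of UMIs), and in 24 no stem-loop was found in the model (15.1%). A missing match says only that these letters are not in the annotated transcript.

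Hist1 genes (54) lie on chromosome 13, Hist2 (10) on chromosome 3, Hist3 (2) on chromosome 11 and Hist4 (1) on chromosome 6. The promoters of Hist1h1b and Hist3h2ba are shown because the first gene was among those with the highest ratio of cycling to non-cycling nuclei, and the second, the member with most UMIs, was among the 3 lowest. The upstream 250 bases of Hist1h1b, a linker histone gene, lie at chr13:21780626-21780875 on the minus strand, and those of Hist3h2ba, an H2B gene, at chr11:58948661-58948910 on the plus strand. Sequences are from RefSeq, build GRCm38.p6, and capitals mark CCAAT and TATAAA on either strand.
Hist1h1b promoter: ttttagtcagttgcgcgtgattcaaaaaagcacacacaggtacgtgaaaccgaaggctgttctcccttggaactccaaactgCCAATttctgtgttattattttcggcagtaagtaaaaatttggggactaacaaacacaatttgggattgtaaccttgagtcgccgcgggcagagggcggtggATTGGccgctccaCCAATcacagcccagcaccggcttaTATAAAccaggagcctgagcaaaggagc
Hist3h2ba promoter: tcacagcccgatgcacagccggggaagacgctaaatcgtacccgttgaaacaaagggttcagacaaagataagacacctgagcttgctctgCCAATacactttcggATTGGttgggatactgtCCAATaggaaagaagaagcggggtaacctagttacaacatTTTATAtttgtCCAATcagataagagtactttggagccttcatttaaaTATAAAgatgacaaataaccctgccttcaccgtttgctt
CCAAT was present 3 times in the Hist1h1b and 4 times in the Hist3h2ba stretch, so both genes carry it. Over the 300-base windows of the 62 members with a RefSeq promoter, CCAAT or its reverse was found in 53 (85.5%), against 37.9% of 27025 promoters. It was in each H1, H2A, H2B and H3 window matched and in 3 of 12 H4 windows. TATAAA was found in 56.5% of members and 14.2% of all promoters. The octamer ATTTGCAT was found in 7 of 18 H2A and 6 of 16 H2B windows and in no H1, H3 or H4 window, or 21.0% of members against 1.75% of all promoters.

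After filtering, 10891 MIP and 14548 control nuclei were kept, with 82788472 and 114401258 UMIs and medians of 6001 and 5638 UMIs per nucleus. Histone cluster genes gave 5640 UMIs in the MIP library and 17993 in the control library, or 68.1 and 157 CPM (counts per 1000000 UMIs). A total of 61 members had a UMI in the MIP library and 63 in the control library, and 4 had none in either (Hist1h1t, Hist1h2aa, Hist1h2ba and Hist1h2bq). Counts were concentrated: 5 genes held 51.3% of the 23633 UMIs, and 53 members reached the 20 UMIs over both libraries required for a gene to be described. Dividing nuclei were grouped in 3 clusters: cycling progenitor-like nuclei (169 MIP, 366 control), cycling oligodendrocyte precursor-like nuclei (72 and 147) and cycling microglia-like nuclei (19 and 41). The first is named from cell cycle genes, with 18 of the fixed cycling markers among its 60 leading genes. It had 1 lineage marker among them, a neuroblast gene, so its lineage is not given by markers. Histone cluster genes were kept out of the genes used for clustering. There were 78 kept barcodes found in both libraries, and results without them are in the closing section.

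Histone cluster RNA was higher in the dividing clusters than in the other named classes compared, and lower in the MIP than in the control library in each class. Cycling microglia-like nuclei had 883 CPM in the MIP library and 1480 CPM in the control library. Cycling progenitor-like nuclei had 352 CPM (95% interval 309 to 400) in the MIP library and 745 CPM (707 to 783) in the control library. Cycling precursor-like nuclei had 273 and 520 CPM. Neuroblast-like cells, which are young migrating neurons, stood at 190 CPM in the MIP library and 291 CPM in the control library. Among the 9 classes with 100 or more nuclei in both libraries, the lowest levels were in excitatory neuron-like nuclei, with 38.0 and 66.7 CPM.

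The level per nucleus gave a different order of the non-dividing classes. Spiny projection neuron-like nuclei, the principal neurons of the striatum, held 0.487 histone UMIs per nucleus in the MIP library and 1.14 in the control library. Over these, excitatory neurons, interneurons and the low-depth clusters, the value stayed within 0.410 to 0.509 in the MIP library and 1.0 to 1.20 in the control library. Median depth over the same 4 sets ran between 687 and 11571 UMIs in the MIP library and between 1133.5 and 15389 UMIs in the control library. Differentiating oligodendrocyte-like nuclei lay above this range, at 0.701 (0.563 to 0.862) and 1.30 (1.16 to 1.47), and microglia-like nuclei below it, at 0.377 (0.316 to 0.446) and 0.989 (0.876 to 1.11). Over the 4 sets histone UMIs per nucleus thus rose with depth in each library, but far less than in proportion to it. CPM has the depth of a class as its denominator. Among classes too small to compare, ependymal-like nuclei (26 MIP, 49 control) stood at 1.58 and 1.78 UMIs per nucleus. The low-depth clusters held 703 MIP and 3610 control barcodes, each cluster mostly of 1 library, and carried 492 and 829 CPM.

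Neurons do not divide, so their values set the level that the other classes were read against. The share of spiny projection neurons with at least 1 histone UMI was 37.3% in the MIP library and 65.8% in the control library, at median depths of 7949 and 10865 UMIs. Among non-cycling microglia-like nuclei the share was 28.8% and 60.9% at the lower depths of 2654.5 and 3101 UMIs. Precursor-like nuclei outside the cycling cluster had 35.8% and 66.9% at depths of 4083 and 4968 UMIs. With each nucleus thinned to 2000 UMIs and shallower nuclei left out, 47.2% of cycling progenitor-like nuclei in the MIP library and 72.1% in the control library had a histone UMI, against 10.3% and 19.1% of spiny projection neurons. The thinned shares of microglia-like nuclei were 23.9% and 46.9%, and those of precursor-like nuclei 20.5% and 36.1%. When thinned, all 3 classes stood above the neurons in each library, although the unthinned shares of microglia-like nuclei lay below those of the neurons. Thinning takes more UMIs from the deeper neurons, so it lowers their share most where histone UMIs rise less than in proportion to depth. Per nucleus, microglia-like nuclei (0.377 and 0.989 UMIs) and precursor-like nuclei (0.458 and 1.136) did not lie above the neurons (0.487 and 1.141). No order between the 3 classes and the neurons is read from the unthinned shares. Nor is one read from the thinned shares for microglia-like and precursor-like nuclei.

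**Figure D1:**
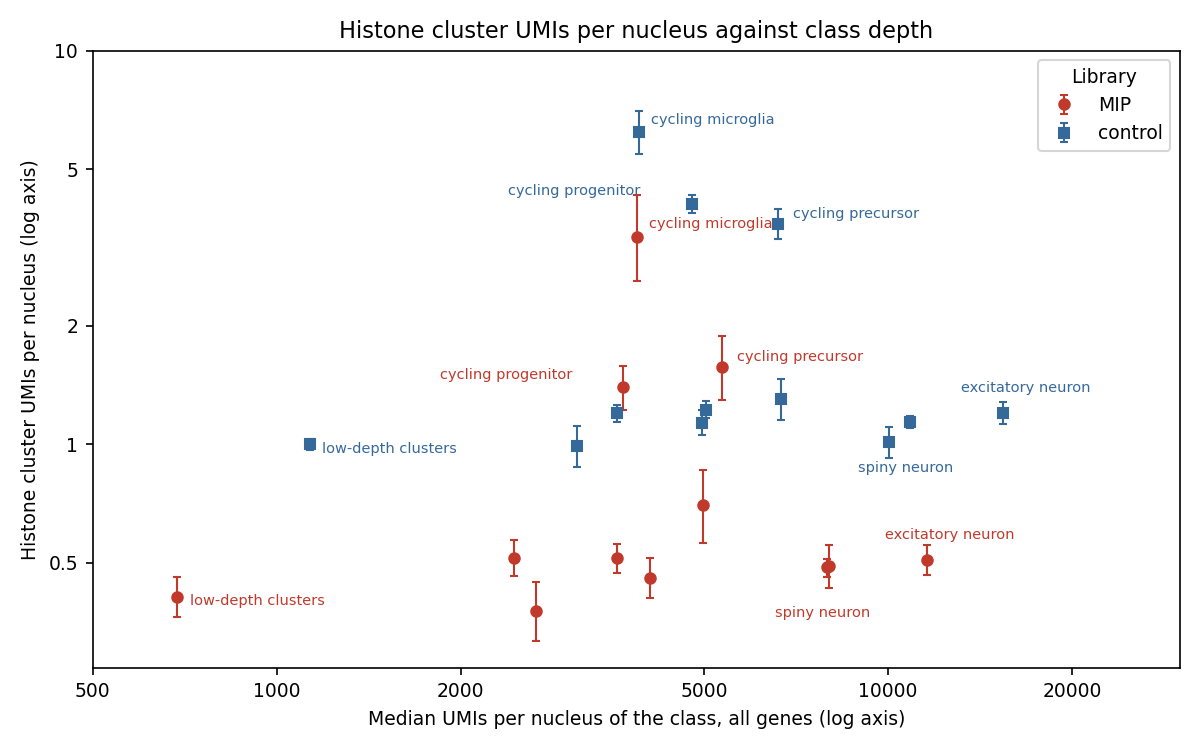
Histone cluster UMIs per nucleus (vertical, log axis) against the median UMIs per nucleus of all genes (horizontal, log axis) for 12 sets of nuclei in the MIP (circles) and control (squares) libraries; bars are exact 95% Poisson intervals, counting error only. Cycling progenitor-like nuclei sit at 1.40 in the MIP and 4.08 in the control library, above the neurons at 0.487 and 1.14.

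In cycling progenitor-like nuclei the library difference was larger than in spiny projection neurons. The progenitor-like nuclei held 1.40 histone UMIs per nucleus in the MIP library (236 UMIs) and 4.08 in the control library (1495 UMIs). By CPM the log2 ratio of MIP to control was −1.08 (−1.28 to −0.88), and per nucleus it was −1.55. Other neurons gave −0.81 (−0.97 to −0.65, excitatory), −0.68 (−0.90 to −0.46, interneurons) and −1.38 (−2.09 to −0.72, cholinergic, 51 nuclei per library) by CPM. Relative to the spiny projection neurons of the same library, cycling progenitor-like nuclei were 6.48 times higher in the MIP library and 8.13 times higher in the control library. The log2 difference of these 2 ratios was −0.33, with an approximate 95% interval of −0.55 to −0.11. Above the neurons' level, a cycling progenitor-like nucleus carried 0.909 further UMIs in the MIP library and 2.94 in the control library. On the same measure cycling precursor-like nuclei carried 1.08 and 2.49, and cycling microglia-like nuclei 2.88 and 5.08.

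As a ratio to the neurons' CPM, the other dividing clusters gave differences whose intervals hold 0. Cycling precursor-like nuclei were 5.01 times the neurons' CPM in the MIP library and 5.68 times in the control library, a log2 difference of −0.18 (−0.49 to 0.13). Cycling microglia-like nuclei, with 64 and 255 histone UMIs, were 16.2 times the neurons in each library, a log2 difference of 0.01 (−0.40 to 0.41). These intervals also hold the value of the cycling progenitor-like nuclei, so a difference between the clusters is not shown. The precursors outside the cycling cluster gave −0.25 (−0.47 to −0.04) by CPM but −0.08 (−0.30 to 0.13) per nucleus. Non-cycling microglia gave −0.42 (−0.73 to −0.11) by CPM and −0.16 (−0.47 to 0.15) per nucleus.

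All 9 classes that held 100 or more nuclei of each library were lower in the MIP library, with log2 ratios between −1.17 in microglia-like and −0.52 in differentiating oligodendrocyte-like nuclei. None of the 9 intervals reached 0. Astroglia-like nuclei had 130 and 215 CPM (log2 −0.72), and precursor-like nuclei 106 and 212 CPM (−1.0). Spiny projection neurons had 54.4 and 91.6 CPM (−0.75), and the low-depth clusters also differed by −0.75. Neurons, which do not divide, therefore differed in the same direction as dividing cells. The low-depth value joins a cluster of 47 MIP and 3515 control barcodes with another of 656 and 95. It mostly sets different clusters against each other and is not read as a difference within a class. With 1 library per group no test between groups could be made. All intervals cover counting error only, and the part of free RNA, sex or preparation in the result was not tested.

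Nuclei with many histone UMIs were found mainly in the control library. A limit of 5 UMIs, chosen after the values were seen, was reached by 7 of 169 cycling progenitor-like nuclei in the MIP library (4.14%, exact interval 1.68 to 8.35%). In the control library it was reached by 125 of 366 (34.2%, 29.3 to 39.3%). Of cycling precursor-like nuclei, 6 MIP (8.33%) and 46 control nuclei (31.3%) reached it, and of cycling microglia-like nuclei 6 (31.6%) and 21 (51.2%). Of spiny projection neurons, 0.0693% in the MIP and 1.26% in the control library did so. The highest count in a nucleus was 13 in the MIP library, in the differentiating oligodendrocyte-like class, and 46 in the control library, in a cycling progenitor-like nucleus.

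Cycling was next read from each nucleus. Nuclei with at least 2 UMIs of Mki67, Top2a and Cenpf, 3 genes of G2 and mitosis, were set against nuclei with none. Histone cluster genes had 197 CPM in 353 cycling and 65.1 CPM in 9786 non-cycling MIP nuclei, a log2 ratio of 1.60 (1.46 to 1.73). In the control library they had 375 CPM in 812 cycling and 145 CPM in 12303 non-cycling nuclei, a log2 ratio of 1.36 (1.30 to 1.42). Within the precursor lineage the log2 ratio was 1.31 (0.98 to 1.63) in the MIP library and 1.35 (1.18 to 1.51) in the control library. Within microglia-like nuclei it was 2.46 and 1.96.

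The ratio was smaller within the other classes read this way. In the cycling progenitor-like cluster it was 0.18 (−0.49 to 0.92) in the MIP library, with 22 non-cycling nuclei, and 0.84 (0.44 to 1.26) in the control library, with 34. Of these nuclei without a UMI of the 3 genes, 17 MIP and 29 control nuclei had at least 2 UMIs of S phase genes. They stood at 378 and 421 CPM. In this cluster the ratio therefore does not set dividing against non-dividing nuclei. In astroglia-like nuclei the ratio was 0.44 (−0.58 to 1.29) with 13 cycling MIP nuclei and 0.27 (−0.07 to 0.60) with 38 cycling control nuclei. In neuroblast-like nuclei it was 0.64 (−0.69 to 1.69) with 5 and 0.25 (−0.25 to 0.72) with 26. Of these 6 intervals, that of the control cycling progenitor-like cluster lay above 0 and the others held it.

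With an S phase gene list as a further marker, the histone level was highest in nuclei positive for both programmes. Nuclei with at least 2 UMIs of the S phase list and of the 3 genes had 259 CPM in the MIP library (231 nuclei) and 444 CPM in the control library (537 nuclei). Nuclei positive for the S phase list alone had 48.5 and 99.6 CPM, below the nuclei positive for neither list, at 76.2 and 192 CPM. Per nucleus the direction was the opposite, with 0.559 and 1.24 UMIs for the S phase list alone and 0.454 and 1.04 UMIs for neither. The S phase nuclei were deeper, with medians of 9387 MIP and 10180 control UMIs, where nuclei positive for neither list had 4745 and 3689. Nuclei positive for the G2 and mitosis genes alone had 55.5 CPM in the MIP library (29 UMIs in 64 nuclei) and 239 CPM in the control library (229 UMIs in 138 nuclei). Read from the S phase list alone, whatever the other genes, the cycling ratio over all nuclei turned to −0.21 in the MIP and −0.39 in the control library.

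Families differed in how closely they followed cycling. The linker histones had the steepest ratio, with H1 at 64.3 CPM in cycling and 11.4 CPM in non-cycling MIP nuclei (log2 2.50, 2.24 to 2.74). In the control library H1 had 131 and 29.4 CPM (2.15, 2.05 to 2.26). H3, which carries many of the marks read by chromatin proteins, followed at 1.92 in the MIP library and 1.71 in the control library. H2A stood at 1.51 and 1.27 and H4 at 1.37 and 0.94. H2B had the flattest ratio, 1.02 (0.75 to 1.28) in the MIP library and 0.79 (0.66 to 0.92) in the control library. Hist3h2ba alone held 1009 of the 1775 H2B UMIs of non-cycling MIP nuclei and 2642 of 4125 in control nuclei. Its own ratios were 0.17 and −0.17, so the flat H2B ratio rests largely on this gene. Hist1h2be, another H2B gene, gave 1.19 and 1.58. The order of the families over all nuclei was the same in each library, but the intervals of neighbouring families in the MIP library overlap, as do those of H4 and H2B in the control library. Within precursors the order differed: H2A (2.0) and H1 (1.99) led in the MIP library, and H3 (1.98) and H1 (1.97) in the control library.

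Among single members, the 36 genes with at least 50 UMIs and counts in every state could be ranked. Of these, 33 were higher in cycling nuclei in each library, 1 was lower in each and 2 were mixed. At a ratio of 1.5, 24 of 29 described members were higher in cycling MIP nuclei, against 21.1% of all genes, and 44 of 48 in control nuclei, against 17.9% of all genes. In the other direction stood 1 member in the MIP library (15.3% of all genes) and 0 in the control library (12.2%). Hist1h1b, also called H1.5, had the highest mean log2 ratio over the 2 libraries, although Hist1h2bm and Hist1h4i were higher in the control library (2.90 and 2.81). It had 45 UMIs in cycling and 71 in non-cycling MIP nuclei, or 17.96 and 0.975 CPM, a log2 ratio of 4.20 (3.63 to 4.76). In control nuclei it had 337 and 645 UMIs, or 46.9 and 6.95 CPM, a ratio of 2.75 (2.56 to 2.95). These intervals do not overlap. Hist1h2bm, Hist1h4i, Hist1h2bj and Hist1h1a followed, with log2 ratios of 3.64 to 3.86 in the MIP library and 2.43 to 2.90 in the control library, Hist1h2bm from only 2 cycling and 4 non-cycling MIP UMIs.

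At the other end stood the 5 members with the lowest ratios over both libraries. Hist3h2ba, the member with most UMIs, had 15.6 CPM in cycling and 13.9 CPM in non-cycling MIP nuclei (log2 0.17, −0.33 to 0.63), and 25.3 and 28.5 CPM in control nuclei (−0.17, −0.39 to 0.05). Hist3h2a, its H2A neighbour on chromosome 11, gave −0.22 (−1.07 to 0.52) in the MIP library and −0.25 (−0.62 to 0.10) in the control library. Hist2h2ab gave 0.00 and −0.07, from 2 and 7 UMIs in cycling nuclei. Hist1h4c and Hist1h3e had ratios of 0.86 and 0.66 in the MIP library, against 0.64 and 0.97 in the control library. All 5 MIP intervals held 0, and so did the control intervals except that of Hist1h3e (0.49 to 1.42).

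**Figure D2:**
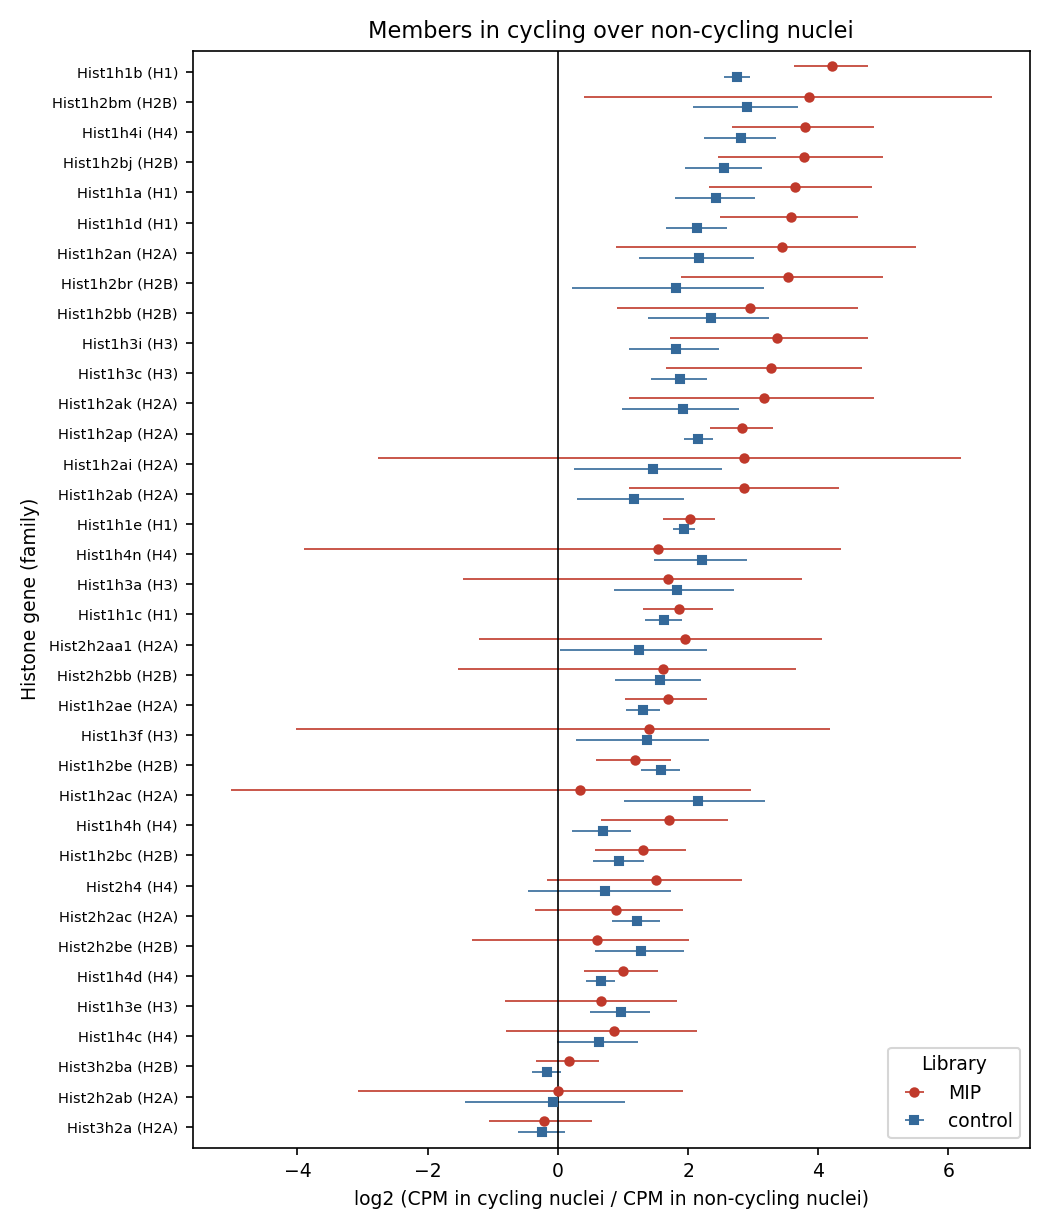
Log2 ratio of CPM in cycling over non-cycling nuclei (horizontal) for the 36 members that could be ranked (vertical), MIP circles above control squares; bars are exact 95% Poisson intervals. Members are ordered by the mean of both libraries, with Hist1h1b at the top at 4.20 in the MIP and 2.75 in the control library, and Hist3h2a at the bottom at −0.22 and −0.25.

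The cycling ratio also differed by annotated transcript end. Members whose model runs 100 or more bases past the stem-loop had a median log2 cycling ratio of 1.30 in the MIP library and 1.34 in the control library, over 14 ranked genes. Members whose model ends within 100 bases had medians of 2.83 and 1.87, over 11 genes. Members with no stem-loop in the model, Hist1h1b among them, had 3.16 and 1.82, over 11 genes. Hist3h2ba ends 169 bases and Hist3h2a 1643 bases past the stem-loop, each with a polyadenylation signal near the end. Hist1h4i also has such a signal and ends 330 bases past the stem-loop, but its cycling ratios were 3.80 and 2.81. This is a description of annotated models, and which end was captured was not tested.

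The family make-up of the counts differed between classes. In cycling progenitor-like nuclei H1 genes held 39.4% of histone UMIs in the MIP library and 37.2% in the control library. In spiny projection neurons they held 12.8% and 15.6%. Hist3h2ba ran the other way, with 7.20% and 4.55% of histone UMIs in cycling progenitor-like nuclei and 21.8% and 21.3% in spiny projection neurons. Per nucleus it was nearly level in the MIP library, at 0.101 in cycling progenitor-like nuclei and 0.106 in spiny projection neurons. In the control library it was lower in cycling progenitor-like nuclei, at 0.186 against 0.243.

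**Figure D3:**
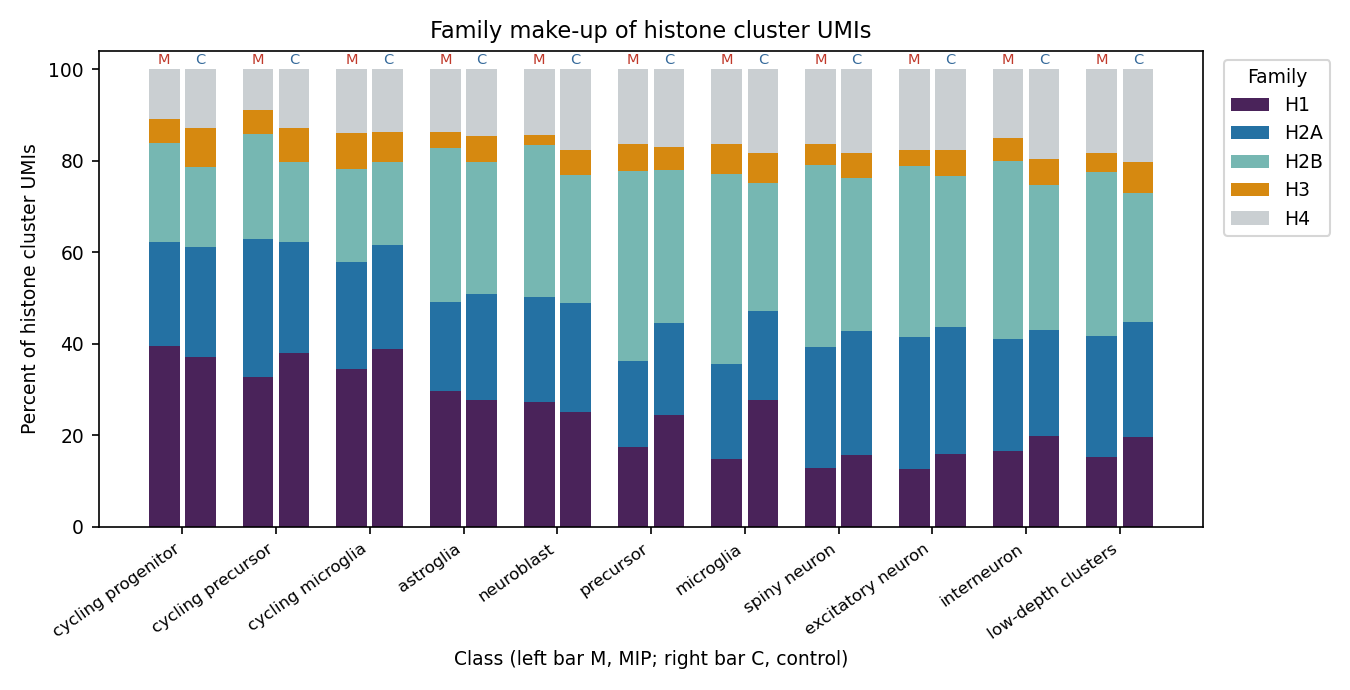
Percent of histone cluster UMIs in the H1, H2A, H2B, H3 and H4 families (stacked bars, each adding to 100%) in 11 sets of nuclei, MIP bar (M) left of control bar (C). The H1 share is 39.4% and 37.2% in cycling progenitor-like nuclei and 12.8% and 15.6% in spiny projection neurons.

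The share of single members in the histone counts also differed between classes. Hist1h1e (H1.4), a linker histone gene, made up 19.6% of histone UMIs in MIP astroglia-like nuclei (exact interval 16.4 to 23.0%) and 17.4% (15.5 to 19.4%) in control astroglia. Its shares in spiny projection neurons were 5.05% (3.96 to 6.33%) and 6.34% (5.55 to 7.21%). Per nucleus this was 0.10 and 0.213 in astroglia, against 0.0246 and 0.0724 in spiny projection neurons. Neuroblast-like nuclei stood between them, with shares of 14.7% and 13.8%.

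Hist1h2be, an H2B gene, had more UMIs per nucleus in spiny projection neurons than in the low-depth clusters. No preference for neurons is read from this. Astroglia-like nuclei held 43 MIP and 89 control UMIs of Hist1h2be, and cycling progenitor-like nuclei 12 and 55. Hist1h2be had 0.0488 UMIs per spiny projection neuron in the MIP library and 0.0601 in the control library, but 0.00711 and 0.0147 in the low-depth clusters. Its share of histone UMIs was 10.03% (8.51 to 11.7%) in MIP and 5.27% (4.54 to 6.07%) in control spiny neurons, and 1.74% (0.566 to 4.005%) and 1.47% (1.10 to 1.92%) in the low-depth clusters. The annotated Hist1h2be gene overlaps Hist1h1e on the same strand, so reads of the overlap cannot be assigned with certainty. By contrast Hist1h4d, the H4 gene with most UMIs, was even: 0.0430 and 0.122 per spiny neuron and 0.0441 and 0.131 per low-depth barcode.

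Each family was lower in the MIP library. In cycling progenitor-like nuclei H3 had the largest gap, with 17.9 CPM (12 UMIs) in the MIP and 64.3 CPM (129 UMIs) in the control library, a log2 ratio of −1.84 (−2.83 to −0.99). H4 had 38.8 and 95.1 CPM (−1.29), H2A 80.6 and 178 CPM (−1.14), and H1 139 and 277 CPM (−1.0). H2B had the smallest gap, with 76.2 and 131 CPM (−0.78, −1.24 to −0.34). All 5 intervals overlap, so no family is shown to differ from another in these nuclei. Over all nuclei, where counts were larger, the values were H3 at −1.71 (−1.91 to −1.504), H1 at −1.45 (−1.54 to −1.35), H4 at −1.38, H2A at −1.20 and H2B at −0.90 (−0.97 to −0.83).

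**Figure D4:**
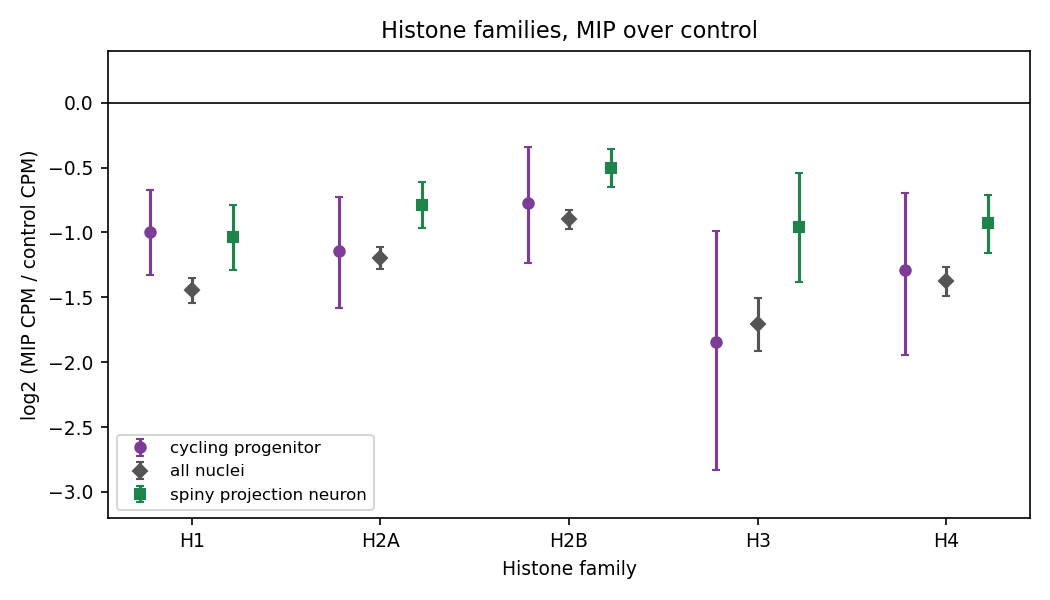
Log2 ratio of MIP CPM to control CPM (vertical) by histone family (horizontal) in cycling progenitor-like nuclei (circles), all nuclei (diamonds) and spiny projection neurons (squares); bars are exact 95% Poisson intervals. All points lie below 0, with H3 at −1.84 and H2B at −0.78 in cycling progenitor-like nuclei.

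Set against spiny projection neurons of the same library, the H1 level of cycling progenitor-like nuclei differed by no more than counting error: it was 19.9 times higher in the MIP library and 19.4 times higher in the control library, a log2 difference of 0.04 (−0.36 to 0.44). H3 was 7.12 and 13.2 times higher (−0.89, −1.83 to 0.06). H2A (−0.35), H2B (−0.28) and H4 (−0.36) lay below 0, each with an interval that holds 0. The deficit of −0.33 over all families is thus not seen in a single family beyond its counting error.

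Over all nuclei 47 of 53 described members were lower in the MIP library at a ratio of 1.5, against 20.7% of all genes, and 0 were higher, against 2.91% of all genes. In cycling progenitor-like nuclei 15 of 18 members were lower, against 16% of all genes. Their median log2 ratio was −1.15, where that of all genes was −0.03. The other dividing clusters had few described members: 6 of 9 were lower in cycling precursor-like nuclei (17.7% of all genes) and 3 of 3 in cycling microglia-like nuclei (20.8%).

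Among the classes outside the dividing clusters, 8 of 12 members were lower in precursor-like nuclei (15.2% of all genes), 6 of 8 in microglia-like (21.4%), 12 of 17 in astroglia-like (15.5%) and 11 of 16 in neuroblast-like nuclei (14.5%). Spiny projection neurons had 20 of 28 lower (16.5% of all genes), excitatory neurons 11 of 17 (17%), interneurons 5 of 11 (17%) and the low-depth clusters 13 of 20 (15%). Differentiating oligodendrocyte-like nuclei had 3 of 7 lower (17.4%). They also had the only member that was higher in any of these sets, Hist1h1c, with 10 and 12 UMIs (log2 0.86, −0.51 to 2.20). Of all genes, 7.81% were higher in cycling progenitor-like, 9.71% in cycling precursor-like and 20.3% in cycling microglia-like nuclei. The share of all genes that were higher was 4.58% in precursor-like, 8.49% in differentiating oligodendrocyte-like, 13% in microglia-like, 4.81% in astroglia-like and 7.1% in neuroblast-like nuclei. It was 3.43% in spiny projection neurons, 4.25% in excitatory neurons, 3.53% in interneurons and 17.4% in the low-depth clusters.

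The members with most UMIs in each family showed the range over all nuclei. Hist3h2ba had 1130 UMIs in the MIP and 3187 in the control library, or 13.6 and 27.9 CPM, a log2 ratio of −1.03 (−1.13 to −0.93). Hist1h4d had 482 and 1851 UMIs (−1.47), Hist1h1e 540 and 1836 (−1.30) and Hist3h2a 570 and 1271 (−0.69). The widest gaps were those of Hist1h3c, an H3 gene, with 26 and 314 UMIs (−3.13, −3.76 to −2.55), and Hist1h1b, with 126 and 1089 UMIs (−2.64, −2.92 to −2.38). Hist1h2ae (267 and 989 UMIs) and Hist1h2ap (249 and 962), both H2A genes, gave −1.42 and −1.48. Hist1h4h, Hist1h4c, Hist1h3e and Hist1h3i lay between −1.93 and −1.08. Hist1h1c gave −0.73 and Hist1h2bc −0.60, and Hist1h2be, with 416 and 717 UMIs, was the nearest to 0 of these at −0.32 (−0.50 to −0.14). The 6 described members that did not pass the ratio were Hist1h2be, Hist1h2br, Hist2h2ab, Hist2h2be, Hist2h3c2 and Hist2h4.

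Hist1h1b differed most firmly among cycling progenitor-like nuclei, with 29 UMIs (43.3 CPM) in the MIP and 210 UMIs (105 CPM) in the control library, a log2 ratio of −1.27 (−1.89 to −0.71). Hist1h1e had 33 and 224 UMIs, or 49.3 and 112 CPM (−1.18, −1.75 to −0.65). Hist2h2ac, an H2A gene of the chromosome 3 cluster, had 3 and 44 UMIs (−2.29, −4.62 to −0.65). Hist1h2ap, an H2A gene with 92.4% of its 90-base windows shared with other genes, had 23 and 131 UMIs (−0.93, −1.63 to −0.28), and its counts may hold reads of its copies.

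The least different members in these nuclei were Hist1h1c, Hist3h2ba and Hist3h2a. Hist1h1c (H1.2), a linker histone gene, had 24 and 71 UMIs, or 35.8 and 35.4 CPM, a log2 ratio of 0.02 (−0.71 to 0.70). Hist3h2ba gave −0.42 (−1.28 to 0.37) and Hist3h2a −0.56 (−1.99 to 0.65), which turned to 0.60 with nuclei thinned to 2000 UMIs. All 3 models run on past the stem-loop, by 840, 169 and 1643 bases, and end near a polyadenylation signal. This is not particular to them. The model of Hist1h4i runs 330 bases past the stem-loop and also ends near such a signal, and Hist1h4i gave −2.46 (−5.57 to −0.49) from 2 and 33 UMIs.

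In spiny projection neurons Hist1h1b was again among the lowest, with 15 UMIs in the MIP and 124 in the control library (log2 −2.51, −3.39 to −1.73). Hist1h3c had 4 and 41 UMIs (−2.82, −4.76 to −1.35), and Hist1h4d 124 and 366 UMIs (−1.02, −1.33 to −0.73). Hist1h2be had 141 and 181 UMIs (0.18, −0.15 to 0.50), Hist1h2bc 70 and 100 UMIs (0.02, −0.44 to 0.48) and Hist2h4 17 and 25 UMIs (−0.02, −1.0 to 0.93). The first 3 had no interval that held 0, and the last 3 no interval without it.

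Hist1h1b was among the 3 firmest differences in 6 further classes. It had 3 UMIs in MIP and 34 in control precursor-like nuclei (−3.17), 3 and 19 in microglia-like nuclei (−2.79), 11 and 71 in astroglia-like nuclei (−2.02) and 9 and 64 in neuroblast-like nuclei (−1.41). In excitatory neurons it had 4 and 44 UMIs (−3.44), and in interneurons 4 and 24 (−2.29). Hist1h1e stood beside it in precursor-like nuclei, with 34 and 109 UMIs (−1.35), and in microglia-like nuclei, with 8 and 40 (−2.45). Hist1h3c had 2 and 26 UMIs in astroglia-like nuclei (−3.03), and 0 and 25 in neuroblast-like nuclei. Hist1h1c gave 0.04 (−0.55 to 0.62) in astroglia-like and 0.29 (−0.36 to 0.91) in neuroblast-like nuclei, but −1.09 (−2.14 to −0.13) in interneurons. Hist1h2bc gave −0.09 in precursor-like, −0.51 in microglia-like and −0.06 in astroglia-like nuclei, each with an interval that holds 0.

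**Figure D5:**
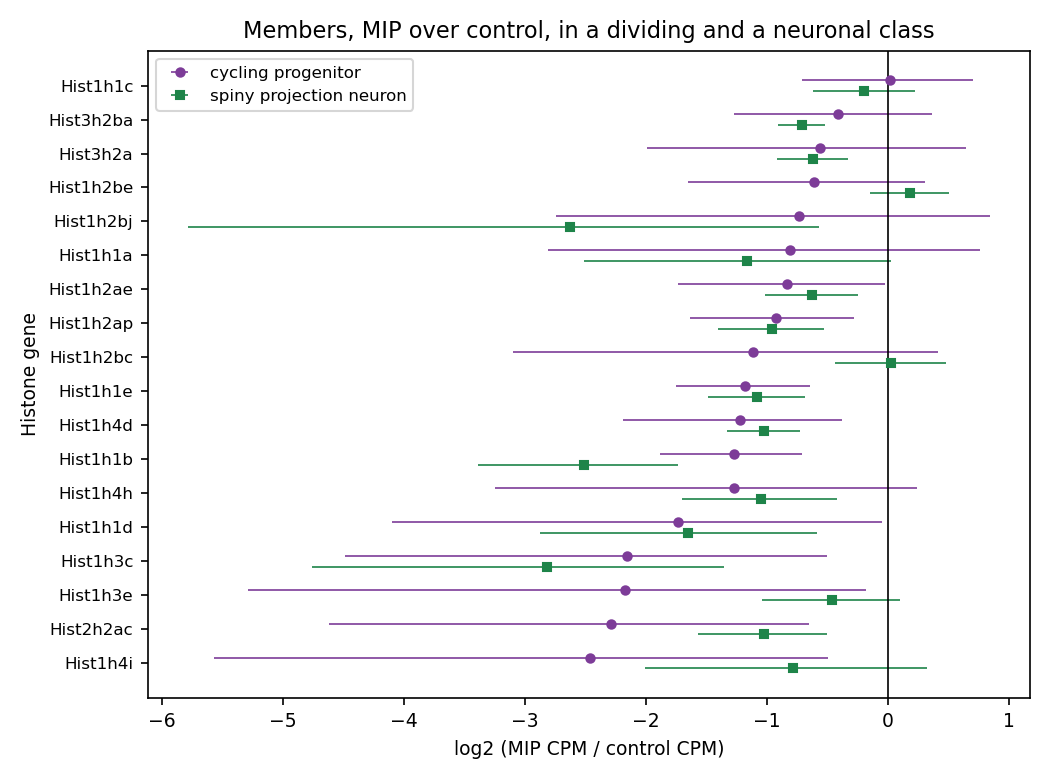
Log2 ratio of MIP CPM to control CPM (horizontal) for the 18 members described in both classes (vertical), in cycling progenitor-like nuclei (circles) and spiny projection neurons (squares); bars are exact 95% Poisson intervals. Hist1h1c lies near 0 in each class, at 0.02 and −0.19, and Hist1h1b at −1.27 and −2.51.

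Genes of DNA replication and division were not lower as a group in cycling progenitor-like nuclei of the MIP library. This cluster was named from cycling markers, and histone cluster genes were kept out of the clustering. Its nuclei in both libraries were thus picked by genes of division, so similar levels of such genes are partly set by that choice. No contrast with the histone cluster genes is read from them. In the S phase list 5 of 21 genes were higher in the MIP library at a ratio of 1.5 and 0 lower; the median was 0.33. Dtl, which helps to limit replication licensing, had 187 CPM in the MIP and 99.6 CPM in the control library (0.91, 0.57 to 1.24). Cdc6, a loader of the replicative helicase, had 35.8 and 19.4 CPM (0.88), and Mcm2, a helicase subunit, gave 0.68 (−0.30 to 1.60). The lowest of the list were Exo1 (−0.48), Ccne2 (−0.47) and Tyms (−0.41). None of 26 G2 and mitosis genes passed the ratio, with a median of −0.04 and values between −0.44 for Bub1 and 0.40 for Cdk1. Over all genes of these nuclei 7.81% were higher and 16% lower.

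In other classes the same lists had members that were lower in the MIP library, and some that were higher. Of the G2 and mitosis genes, 10 of 18 were lower and 1 higher in astroglia-like nuclei (median −0.68). In neuroblast-like nuclei 7 of 14 were lower and 2 higher (−0.62), and in spiny projection neurons 9 of 25 lower and 0 higher (−0.45). In precursor-like nuclei 4 of 9 were lower and 1 higher (−0.28), and in microglia-like nuclei 2 of 5 lower and 0 higher (−0.38). Of the S phase genes, 7 of 20 were lower and 1 higher in astroglia-like nuclei (−0.36). In spiny projection neurons 7 of 20 were lower and 2 higher (−0.28), and in microglia-like nuclei 4 of 14 lower and 0 higher (−0.22). In neuroblast-like nuclei 3 of 16 were lower and 1 higher (0.12). In precursor-like nuclei 2 of 18 were lower and 5 higher (0.20). Of all genes, 15.5% were lower in astroglia-like, 14.5% in neuroblast-like, 15.2% in precursor-like and 21.4% in microglia-like nuclei, and 16.5% in spiny projection neurons. The shares of all genes that were higher were 4.81%, 7.1%, 4.58%, 13% and 3.43% in the same order.

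Further lists were read in cycling progenitor-like nuclei, where 7.81% of all genes were higher in the MIP library and 16% lower. Of 14 described genes for histone transcription and mRNA end processing, Cpsf1 was higher (0.63, −0.31 to 1.51). Nfya, a CCAAT-binding subunit, was lower (−0.65, −1.80 to 0.36), and the median of these genes was 0.15. Eri1, an exonuclease known to trim histone mRNA, gave 0.57 (−0.04 to 1.14). Of 18 histone chaperones, Daxx was higher (0.65) and Asf1b, which hands H3 and H4 to the assembly machinery, lower (−0.96, −1.94 to −0.10), with a median of −0.06. Of 11 replacement variants, which are made outside S phase too, H2afz (182 and 280 CPM, −0.62, −0.91 to −0.33) and H2afj (−0.63) were lower and none higher, with a median of −0.31. These 2 of 11 are near the share of all genes that were lower.

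The genes outside the clusters whose level followed the summed histone level most closely over 38 clusters of nuclei were H2afz (Pearson r = 0.938), Hdgf (0.930), Cirbp (0.928), Srsf3 (0.926) and Supt16 (0.924). Without the low-depth clusters, over 36, they were H2afv (0.95), Cep57 (0.937), H2afz (0.932), Ctdspl2 (0.927) and Supt16 (0.923). Values were log2 of CPM plus 1. Each cluster sums nuclei of both libraries, and clusters share library and depth, so these values are descriptions.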

How the data were processed

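Single nuclei of 2 libraries (1 MIP, 1 control) were analysed from the deposited raw UMI counts per gene and barcode, which per the file headers the authors made with Cell Ranger 5.0.1, and on mm10 per the submitters' processing notes. Nothing else about reads, introns or multi-mapping is given in the sources used here. The members, classes and gene lists were chosen with earlier results of these data known.

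Barcodes with under 500 genes (204 MIP, 0 control) or over 5% mitochondrial UMIs (48 and 114) were left out. Scrublet in Scanpy 1.11.5 marked 0 doublets by itself in each library, so the highest scores were removed at an assumed 0.8% per 1000 barcodes (1223 MIP, 2302 control). Kept barcodes were 88.1% of 12366 MIP and 85.8% of 16964 control barcodes. Clusters came from 3000 variable genes without histone cluster genes, 40 principal components, 20 neighbours and Leiden resolution 1 (leidenalg 0.10.2, scikit-learn 1.9.0), and were named from fixed markers, so a name means resemblance. A cluster of the cycling class needed 3 cycling markers among 60 leading genes.

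UMIs were summed per class and library, divided by class totals (CPM) and compared as log2 ratios with exact 95% intervals of a ratio of 2 Poisson counts; shares have Clopper-Pearson intervals, and differences between ratios a normal approximation on the log scale. UMIs count molecules, so no length was divided out. Genes with at least 20 UMIs over both libraries are described, and called higher or lower from a 1.5-fold ratio on. No test was made: nuclei are not replicates. Named members were the 3 with most UMIs per family, the 3 highest and 3 lowest per class by the interval bound nearest a ratio of 1, the 5 lowest and 5 highest cycling ratios, and members with 20 UMIs in a non-dividing class; of these last, and beside them Hist1h2ap, those described were picked after their values were seen. The intervals were tested on simulated Poisson counts, the model they assume. This checks the calculation only and holds no spread between nuclei or libraries. TMM scaling used edgeR 4.0.16.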

Additional observations from a re-analysis of the deposited data

How the results depend on the processing

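No paired analysis was possible because each group has 1 library, and for the same reason no library could be left out. The summed histone level was lower in the MIP library in all 79 alternative values for 10 sets of nuclei (log2 −1.55 to −0.45), among them those without barcodes found in both libraries. Alternatives added after seeing the data were UMIs per nucleus, those without the shared barcodes or the low-depth clusters, and the limit of 5 UMIs. Where not stated, the cause of a shift was not tested.

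Per nucleus, the log2 ratio of MIP to control was −1.55 in cycling progenitors, −1.31 in precursors, −0.90 in differentiating oligodendrocytes, −1.25 in astroglia, −1.22 in neuroblasts, −1.23 in spiny neurons, −1.24 in excitatory neurons, −1.05 in interneurons and −1.26 in all nuclei. Thinned to 2000 UMIs it was −1.19 in differentiating oligodendrocytes, −0.91 in neuroblasts, −0.98 in spiny neurons and −0.63 in excitatory neurons. Without doublet removal it was −1.51 in microglia and −0.98 in excitatory neurons. TMM scaling gave −0.62 in spiny neurons and −1.03 in all nuclei, moving the scale by 0.13 and 0.17, and leaving out the low-depth clusters gave −1.01 in all nuclei.

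The cycling ratio depended on how cycling was read. Over all nuclei it turned round when cycling was read from the S phase list, to −0.21 in the MIP and −0.39 in the control library. From 1 marker UMI it was 0.47 and 0.52, thinned 2.10 and 2.20, and without doublet removal 1.38 and 1.16; per nucleus it was 1.60 in the control library. In precursors it was 0.86 and 1.10 from 1 UMI, 0.34 and 0.69 from the S phase list, and 1.72 and 1.70 per nucleus. In microglia it was 2.01 and 1.57 from 1 UMI and 1.49 and 1.03 from the S phase list. Microglia gave 2.99 in the MIP library without doublet removal, and in the control library 2.23 when thinned and 2.37 per nucleus.

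Counts of members moved with the minimum, which sets how many are described. Over all nuclei 28 were lower when thinned, and 1 was higher from 1 UMI. In cycling progenitors 26 were lower from 10 UMIs, 49 from 1 UMI and 7 when thinned, and 3 were higher from 1 UMI. In spiny neurons 44 were lower and 2 higher from 1 UMI, 13 were lower at a ratio of 2 and 10 when thinned. The share of all genes called was not computed at these settings, so no excess of members is read from these counts. Shares of cycling progenitors with a histone UMI were 64.5% in the MIP and 92.9% in the control library unthinned, 39.2% and 61.8% thinned to 1500 UMIs, and 4.14% and 34.2% at 5 or more UMIs. The same shares of spiny neurons were 37.3% and 65.8%, 8.63% and 14.6%, and 0.0693% and 1.26%.

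Among named members, Hist3h2a in cycling progenitors ranged between −0.56 and 0.60, and Hist2h4 in spiny neurons between −0.25 and 0.82. Most members have under 20 UMIs per class in the MIP library, which limits statements on single genes.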
